A study of Gallus gallus with 3 samples.

Results

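PAX7 and the 4 myogenic regulatory factors MYF5, MYOD1, MYOG and MYF6 were followed in single cells of the developing chicken forelimb. The 5 genes were taken by symbol from the 24356 genes of the counts, as PAX7 (ENSGALG00000043204), MYF5 (ENSGALG00000028091), MYOD1 (ENSGALG00000006216), MYOG (ENSGALG00000000172) and MYF6 (ENSGALG00000010936), and all 5 were found in every library. At least 1 UMI of at least 1 of them was found in 75 of the 5235 E4 cells, 425 of the 4237 E6 cells and 5810 of the 27361 E10 cells. The forelimbs came from wild-type chicken embryos with no treatment, 2 embryos pooled at embryonic day 4, 3 at day 6 and 3 at day 10, and each pool gave 1 droplet library. A UMI (unique molecular identifier) marks 1 captured mRNA copy, and a cell is here a droplet barcode with at least 1000 UMIs at E4, 700 at E6 or 450 at E10. No stage has a replicate, so no test between stages or between groups of cells was made, and the 95% intervals given below (exact binomial for shares, exact Poisson for counts) cover counting error only.

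PAX7 is a paired-box transcription factor of muscle progenitors and of the satellite cells of later muscle, and it is also made in the neural crest. MYF5, MYOD1, MYOG and MYF6 are basic helix-loop-helix factors that bind DNA together with the E proteins TCF3, TCF4 and TCF12, and ID proteins hold E proteins away from them. In the textbook order, known mostly from the mouse, MYF5 and MYOD1 commit progenitors to the muscle fate, MYOG drives the exit into differentiation, and MYF6 (MRF4) is made both in early precursors and in muscle fibres.

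The median cell held 3645 (E4), 2216 (E6) and 1081 (E10) UMIs, and deeper cells show a gene more often. For this reason, shares between stages were also taken after every cell had been thinned to 450 of its UMIs, drawn at random, which left out no cell. The number of E10 barcodes is above the number of cells that the methods state were loaded, and whether each barcode is 1 cell was not tested. The libraries shared 13 (E4 and E6), 33 (E4 and E10) and 35 (E6 and E10) cell barcodes, where 3.26, 21.1 and 17.1 would be shared if barcodes were drawn independently. Markers of muscle other than the 5 genes were present at all stages, with at least 3 of 18 detected in 41 E4 cells, 307 E6 cells and 2889 E10 cells.

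All 5 genes were lowest at E4 and higher at E6, and then parted. PAX7, MYOD1 and MYOG were higher again at E10, MYF6 was close to its E6 level, and MYF5 was lower. These levels are over all cells, of which 41 at E4, 307 at E6 and 2889 at E10 had at least 3 muscle markers. The part of muscle cell numbers in the differences between stages was not tested. Any of the 5 genes was found in 1.43% of E4 cells (1.13 to 1.79%), 10% of E6 cells (9.14 to 11%) and 21.2% of E10 cells (20.8 to 21.7%). With 450 UMIs per cell the shares were 0.267%, 3.71% and 11.2%, in the same order. The unit of level is CPM, in which the UMI sum of a gene is scaled to a fixed sum over all genes. At E6 the level was at least 2 times that of E4 for 5 of the 5 genes, as for 9.5% of all genes tested, and at least 2 times lower for none, as for 3.74% of all genes. At E10 it was at least 2 times that of E6 for 3 of the 5 genes, as for 10% of all genes, and at least 2 times lower for 1 of 5, as for 5.76%. Between E4 and E10 all 5 genes were at least 2 times higher, as were 17.6% of all genes.

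PAX7 had an E4 level of 3.03 CPM (2.33 to 3.88), an E6 level of 33.2 (29.8 to 37.0) and an E10 level of 94.9 (91.6 to 98.3), found in 45, 201 and 2300 cells. MYOD1, the commitment factor, was at 0.481 CPM (0.231 to 0.884), 71.8 (66.7 to 77.1) and 194 (189 to 199), found in 10, 230 and 3394 cells. MYOG, the differentiation factor, had no UMI in the 5235 E4 cells, which allows a level of up to 0.144 CPM and a share of cells with a UMI of up to 0.0573% (3 counts), and it had 3 UMIs in the E4 barcodes of 1 to 99 UMIs. At E6 it was at 11.3 CPM (9.34 to 13.6) in 54 cells and at E10 at 52.0 CPM (49.6 to 54.5) in 1118 cells. For these 3 genes the intervals of the stages did not overlap, and the order was E4, E6, E10. Over its E4 level the E6 level was 11-fold for PAX7 (8.36 to 14.6), 149-fold for MYOD1 (80.7 to 312) and at least 78.4-fold for MYOG, computed against 3 UMIs at E4. The E10 levels of the same genes were 2.86 (2.55 to 3.20), 2.70 (2.51 to 2.92) and 4.60 times (3.81 to 5.60) those of E6.

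MYF5 was highest at E6. Its levels were 0.962 CPM (0.588 to 1.49) in E4 cells, 17.5 (15.0 to 20.2) in E6 cells and 7.62 (6.71 to 8.62) in E10 cells, found in 17, 125 and 245 cells. The E10 level was 0.437 times the E6 level (0.359 to 0.532). At 450 UMIs per cell MYF5 was found in 0.519% of E6 cells (0.326 to 0.785%) and in 0.322% of E10 cells (0.258 to 0.396%), and these intervals overlap. Over 20 further random thinnings the shares were 0.354 to 0.732% and 0.256 to 0.347%. MYF6 had levels of 1.25 CPM (0.817 to 1.83) in E4 cells, 16.2 (13.8 to 18.8) in E6 cells and 19.7 (18.3 to 21.3) in E10 cells, found in 20, 123 and 606 cells. The intervals of the last 2 levels overlapped, while that of their ratio of 1.22 (1.03 to 1.46) lay just above 1. After thinning, MYF6 was found in 0.307% of E6 cells (0.163 to 0.524%) and in 0.724% of E10 cells (0.627 to 0.831%). Over the 20 further thinnings these shares were 0.283 to 0.661% and 0.702 to 0.841%, so that the size of this difference depended on the draw.

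**Figure D1:**
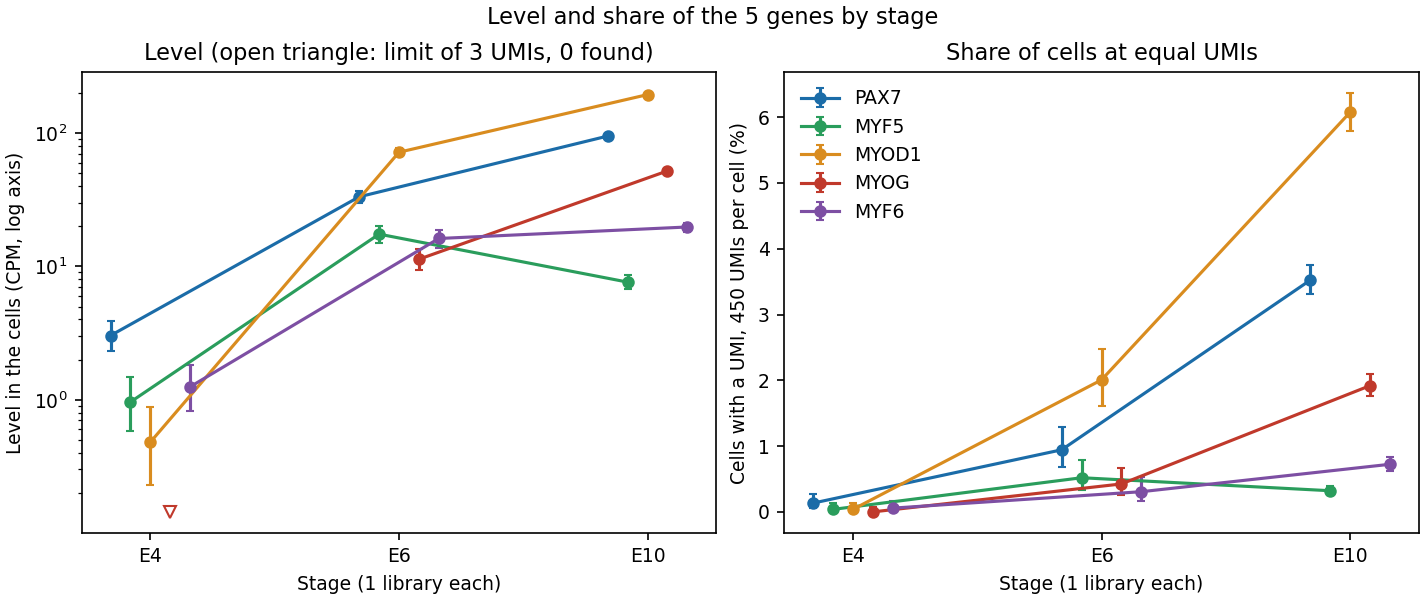
Level of the 5 genes in the cells of each stage (left, CPM on a log axis, bars are exact Poisson 95% intervals) and share of cells with a UMI when each cell is thinned to 450 UMIs (right, percent, bars are exact binomial 95% intervals). PAX7, MYOD1 and MYOG are highest at E10, MYF5 is highest at E6, and the open triangle marks the limit of 0.144 CPM for MYOG at E4.

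Most positive cells held few copies. At E10 the cells with a PAX7 UMI held 1.38 of its UMIs on average, those with MYF5 held 1.04, MYOD1 1.91, MYOG 1.55 and MYF6 1.09. The highest number in a cell was 7 for PAX7, 2 for MYF5, 14 for MYOD1, 9 for MYOG and 3 for MYF6. At E6, where cells were deeper, MYOD1 reached 18 UMIs in a cell and 146 of its 230 positive cells held at least 2. A cell without a UMI of a gene can therefore not be taken as a cell without its mRNA, and the word alone is used below for detection only.

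Levels in barcodes of 1 to 99 UMIs and shares in cells that should lack the genes were taken as a guide to RNA from outside a cell. Whether the barcodes of 1 to 99 UMIs held free RNA or remains of cells was not tested. In the E10 barcodes of 1 to 99 UMIs, MYOD1 was at 283 CPM and MYOG at 159 CPM, above the 194 and 52.0 CPM of the cells, whereas PAX7 was at 33.5 CPM against 94.9. At E6 MYOG was at 22.4 CPM there against 11.3 in the cells. Reference cells were cells with at least 3 endothelial, ectoderm or leukocyte markers or with over 20% haemoglobin UMIs. Among 746 reference cells at E10 (median 1442 UMIs), a UMI was found in 0.670% for PAX7, 0.134% for MYF5, 2.68% for MYOD1 (1.65 to 4.11%), 0.402% for MYOG and 0.268% for MYF6. The shares over all E10 cells (median 1081 UMIs) were 8.41%, 0.895%, 12.4%, 4.09% and 2.21%, each with an interval above that of the reference cells. Haemoglobin made up over 20% of the UMIs in 450 of these 746 cells, so their median UMIs overstate their depth for other genes. The 45 reference cells at E6 and 68 at E4 were too few to set a background, with 1 cell each for PAX7, MYOD1 and MYF6 at E6 and none for any gene at E4.

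The 75 positive cells of E4 held mostly PAX7, MYF5 and MYF6. PAX7 alone was found in 32 cells, MYF6 alone in 12, MYOD1 alone in 9 and MYF5 alone in 7. The 15 cells with at least 2 of the genes were 6 with PAX7 and MYF5, 4 with PAX7 and MYF6, 2 with MYF5 and MYF6, 2 with all 3 of these, and 1 with PAX7 and MYOD1. Joint cells of PAX7 and MYF5 numbered 8 where 0.229 were expected from cells of like UMIs (34.9 times, 15.1 to 68.8). For PAX7 and MYF6 there were 6 joint cells (21.2 times, 7.79 to 46.2), and for MYF5 and MYF6 4 (33.8 times, 9.21 to 86.5). These ratios cover muscle and non-muscle cells together. In the 41 E4 cells with at least 3 muscle markers, not split by UMIs, PAX7 and MYF5 were at 2.46 (3 joint cells, 0.507 to 7.19). PAX7 and MYF6 were at 0.683 there (0.0173 to 3.81) and MYF5 and MYF6 at 1.37 (0.0346 to 7.61), each from 1 joint cell. All of these intervals held 1. None of the 10 E4 cells with MYOD1, each with 1 UMI, held MYF5 or MYF6, where 0.0382 and 0.0611 joint cells were expected, too few to compare. Of these 10 cells 1 had at least 3 muscle markers and 9 had a UMI of a connective tissue marker (PRRX1, TWIST2, PDGFRA, OSR1 or SCX), as had 91.1% of all E4 cells (90.3 to 91.8%) and 15 of the 45 PAX7 cells (33.3%). MYOD1 at E4 was also higher in barcodes of 1 to 99 UMIs, at 7.55 CPM from 12 UMIs, than the 0.481 CPM of the cells, and the part of free RNA in these 10 cells was not tested.

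At E6 the positive cells shared genes more often than at any other stage. At least 2 of the 5 genes were found in 50.6% of the 425 positive cells (45.7 to 55.4%), in 20% of those at E4 (11.6 to 30.8%) and in 28.9% at E10 (27.7 to 30.1%). With 450 UMIs per cell, 11.5% of the positive E6 cells (6.94 to 17.5%) and 11.6% of the positive E10 cells (10.5 to 12.8%) held at least 2, so the difference in all UMIs was not seen at equal UMIs. The most frequent states at E6 were MYOD1 alone (83 cells), PAX7 alone (62), MYOD1 with MYOG (36), MYF5 alone (35) and PAX7 with MYOD1 (27). Cells with PAX7, MYOD1 and MYF6 numbered 22, those with PAX7, MYF5 and MYOD1 15, and those with PAX7, MYF5 and MYF6 14. The 4 genes other than MYOG were found together in 11 cells.

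At E10 the order was similar at the top. MYOD1 alone was found in 1974 cells (34.0% of positive cells), PAX7 alone in 1456 (25.1%), MYOD1 with MYOG in 618 (10.6%), PAX7 with MYOD1 in 492 (8.47%) and MYOG alone in 394 (6.78%). At least 3 muscle markers were found in 613, 307, 380, 187 and 162 cells of these states, in the same order. The part of RNA from outside the cell in these states was not tested. States of 3 genes were rarer than at E6, with PAX7, MYOD1 and MYF6 the most frequent at 58 cells. All 5 genes were detected in 1 cell of E10 and in none of E4 or E6.

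**Figure D2:**
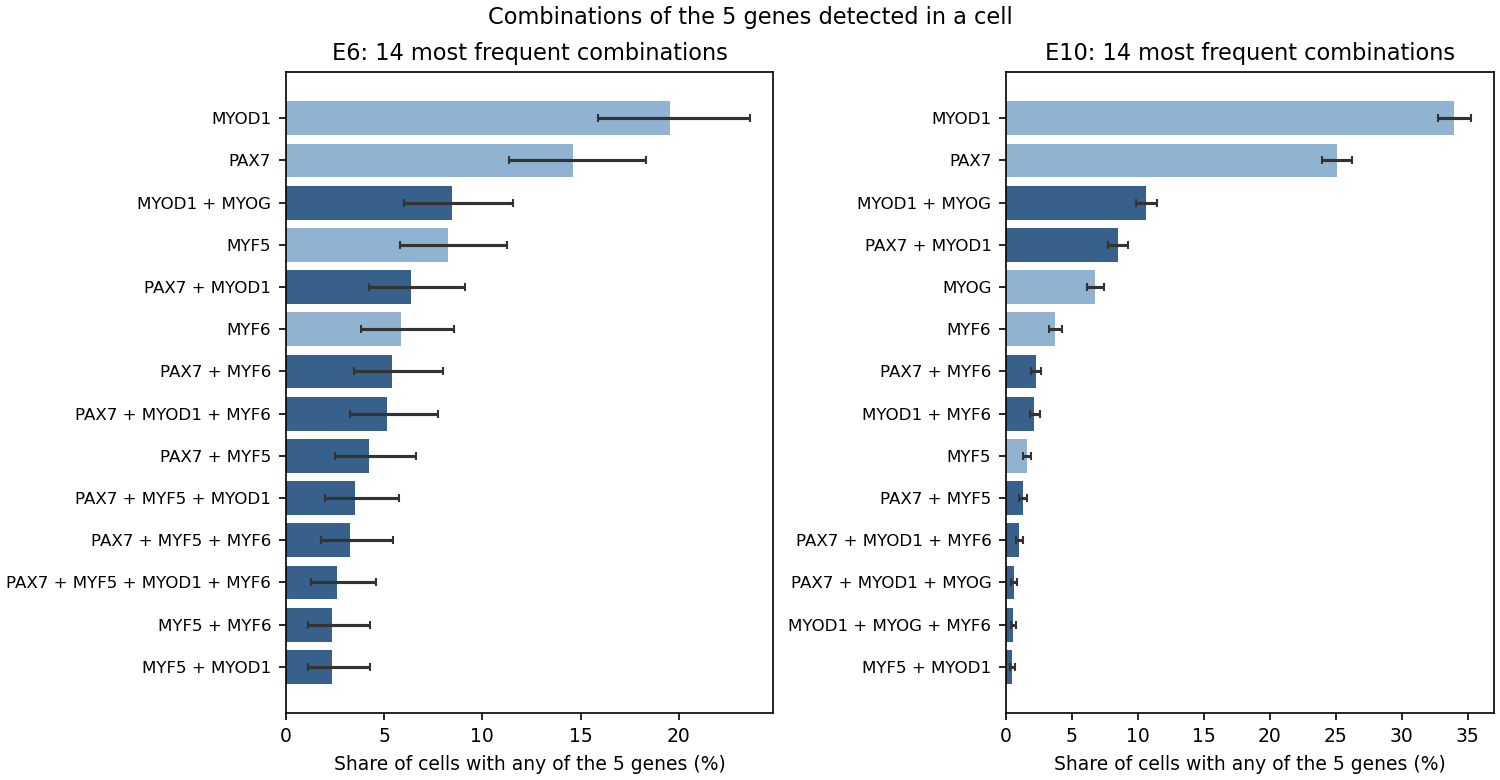
The 14 most frequent combinations of the 5 genes at E6 (left, 425 positive cells) and E10 (right, 5810 positive cells), as percent of the cells with any of the 5 genes, with exact binomial 95% intervals. Light bars are genes detected alone and dark bars are combinations, MYOD1 and PAX7 alone lead at both stages, and the most frequent combination at both is MYOD1 with MYOG.

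Exclusive detection differed between the genes. At E6 MYOG was alone in 5 of its 54 cells (9.26%, 3.08 to 20.3%), where 78.3% were expected to be alone if the genes were detected independently in cells of like UMIs. PAX7 was alone in 30.8% of its cells, MYF5 in 28.0%, MYOD1 in 36.1% and MYF6 in 20.3%, with 74.7 to 81.6% expected for these. These expected shares are over muscle and non-muscle cells together. Within the 307 E6 cells with at least 3 muscle markers, PAX7 was alone in 28 cells where 28.2 were expected (0.993 times, 0.660 to 1.44). The intervals of MYF5 (1.41 times), MYOD1 (0.901 times) and MYF6 (0.809 times) also held 1, while MYOG was at 0.314 times (0.0647 to 0.917). At E10 MYOG was alone in 35.2% of its 1118 cells (32.4 to 38.1%) and PAX7 in 63.3% of its 2300 (61.3 to 65.3%), where 73.0% and 76.4% were expected. Within the 2889 E10 cells that had at least 3 muscle markers, PAX7 was alone in 307 cells, 1.36 times the expected 225 (1.21 to 1.52). MYOG was alone in 162 of these, 0.675 times the expected 240 (0.575 to 0.787).

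Joint detection was set against the number of cells expected to hold both genes if each were detected independently within 20 strata of cells of like UMIs. Over all E6 cells, PAX7 reached at least 2 times the expected number with 4 of the 4 other genes, against 2.1% of the 8753 genes tested. For MYOG this was 9 joint cells (2.18 times), with an interval that held 1 (0.998 to 4.14), and in cells thinned to 700 UMIs there was no joint cell where 0.383 were expected. The same held for MYOD1 with 4 of 4 (2.23% of all genes), MYF5 with 3 (2.55%), MYF6 with 3 (2.49%) and MYOG with 2 (5.43%). Of the 8753 genes, none had a larger ratio with MYOD1 than MYOG, while MYOD1 ranked 13 by its ratio with MYOG. The largest ratio among the pairs was that of MYOD1 and MYOG, with 46 joint cells and 4.16 expected (11.1 times, 8.10 to 14.7). MYF5 and MYF6 followed with 43 joint cells (5.58 times, 4.04 to 7.51), PAX7 and MYF6 with 70 (5.25 times, 4.09 to 6.64) and PAX7 and MYF5 with 60 (4.77 times, 3.64 to 6.14). MYF5 and MYF6 are adjacent genes in the RefSeq table of GRCg7b, an assembly other than that of the counts, and how reads between them were assigned was not examined. MYOG and MYF6 were found together in 2 cells where 2.51 were expected (0.796 times, 0.0964 to 2.87).

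Over all E10 cells 9 of the 10 ratios were smaller, and that of PAX7 with MYOG was below 1. The exception was MYOG with MYF6, with 46 joint cells (1.42 times, 1.04 to 1.89). The largest ratio possible over all cells falls as a gene is found in a larger share of cells. MYOD1 was in 5.43% of E6 cells and 12.4% of E10 cells, so ratios over all cells cannot be compared in size between stages. PAX7 reached at least 2 times the expected number with 2 of the 4 other genes, MYF5 (106 cells, 3.61 times, 2.96 to 4.37) and MYF6 (205 cells, 2.89 times, 2.51 to 3.32), against 1.64% of the 10992 genes tested. So did MYF6 with 3 of 4 (2.76% of all genes), MYF5 with 2 (4.25%), MYOD1 with 2 (2.16%) and MYOG with 1 (4.02%). PAX7 with MYOD1 was found in 607 cells (1.63 times, 1.51 to 1.77). PAX7 with MYOG was found in 59 cells where 120 were expected (0.492 times, 0.374 to 0.634), and a ratio of at most 0.5 with PAX7 was found for 1 of the 4 genes and for 12.6% of all genes. With MYF5 it was 1 of 4 against 20.7%, and with MYOG 2 of 4 against 22.1%, so that ratios this low were frequent over all cells. MYOD1 with MYOG was found in 691 cells, 61.8% of the MYOG cells (3.99 times, 3.69 to 4.29). Of the 10992 genes, MYOG ranked 12 by its ratio with MYOD1, and MYOD1 ranked 122 by its ratio with MYOG. A UMI of MYF5 and of MYOG met in 6 cells (0.445 times, 0.163 to 0.969).

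These ratios over all cells cover muscle and non-muscle cells. The same count was also made among cells with at least 3 muscle markers, a list that holds none of the 5 genes but is rich in contractile genes. In the 307 such cells of E6, a UMI was found in 40.7% for PAX7, 27.0% for MYF5, 45.0% for MYOD1, 14.3% for MYOG and 25.1% for MYF6. In the 2889 of E10 the shares were 21.5%, 2.46%, 45.2%, 20.9% and 6.51%. These cells were deeper at E6 (median 3298 UMIs) than at E10 (1471), and the shares were not taken at equal UMIs.

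Within these cells MYOG was found with MYOD1 more often, and with PAX7, MYF5 and MYF6 less often, than the expected number. At E6 MYOD1 was found in 38 of the 44 MYOG cells, where 21.8 were expected (1.75 times, 1.24 to 2.40). PAX7 and MYOG were found together in 7 cells where 16.2 were expected (0.431 times, 0.173 to 0.888). MYF5 and MYOG met in 3 cells (0.288 times, 0.0595 to 0.843), and MYOG and MYF6 in 2 where 9.46 were expected (0.211 times, 0.0256 to 0.764). In the same direction at E10, MYOD1 was found in 428 of 605 MYOG cells (1.53 times, 1.39 to 1.69) and PAX7 and MYOG met in 39 cells where 131 were expected (0.298 times, 0.212 to 0.407). MYF5 and MYOG met in 4 cells (0.270 times, 0.0737 to 0.692) and MYOG and MYF6 in 24 (0.613 times, 0.393 to 0.912). In cells with at least 3 muscle markers and 20 strata, all 3 genes were below expectation with MYOG at both stages with intervals under 1. This differed from the ratios over all cells, where PAX7 with MYOG was at 2.18 at E6 and MYOG with MYF6 at 1.42 at E10. Some of these intervals came to hold 1 under other settings, under which MYF5 with MYOG was not recomputed. PAX7 with MYOG at E6 was 0.494 with 50 strata (0.199 to 1.02) and 0.647 in cells with at least 1 muscle marker outside the differentiation list, a choice made after seeing the data (0.296 to 1.23), and MYOG with MYF6 at E10 was 0.830 in the latter (0.585 to 1.14). Without the tenth of the cells with the most UMIs, the E6 ratio of MYOG with MYF6 was 0.313 (0.0380 to 1.13) and the E10 ratio 0.598 (0.318 to 1.02).

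PAX7, MYF5 and MYF6 were found together above expectation at E10 in the cells with at least 3 muscle markers. At E10 the ratio was 1.77 for PAX7 and MYF5 (33 cells, 1.22 to 2.49), 1.39 for PAX7 and MYF6 (66 cells, 1.07 to 1.76) and 2.04 for MYF5 and MYF6 (11 cells, 1.02 to 3.66). With at least 4 muscle markers all 3 intervals held 1, at 1.88 (0.861 to 3.57), 1.24 (0.734 to 1.96) and 0.713 (0.0180 to 3.97). The last of these came from 1 joint cell. After thinning to 450 UMIs all 3 intervals also held 1, at 1.23, 1.80 and 2.37. Without the tenth of the cells with the most UMIs, those of PAX7 and MYF5 (0.976 to 2.77) and MYF5 and MYF6 (0.946 to 5.61) held 1. That of PAX7 and MYF6 did not (1.11 to 2.25). At E6 the 3 ratios were 1.05, 1.27 and 1.15, and all 3 intervals held 1. With at least 1 muscle marker outside the differentiation list in place of 3 markers, the 3 lay above 1, at 1.49 (1.13 to 1.93), 1.67 (1.29 to 2.12) and 1.65 (1.18 to 2.25). PAX7 and MYOD1 met in 53 cells at E6 (0.925 times, 0.693 to 1.21), a ratio that was 1.29 with the other choice of markers (1.02 to 1.60). They met in 244 cells at E10 where 307 were expected (0.796 times, 0.699 to 0.902). MYF5 and MYOD1 were at 0.844 at E6 (0.581 to 1.19) and at 0.591 at E10 (0.366 to 0.904). MYOD1 and MYF6 were near 1 at both stages, at 0.872 and 0.933.

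**Figure D3:**
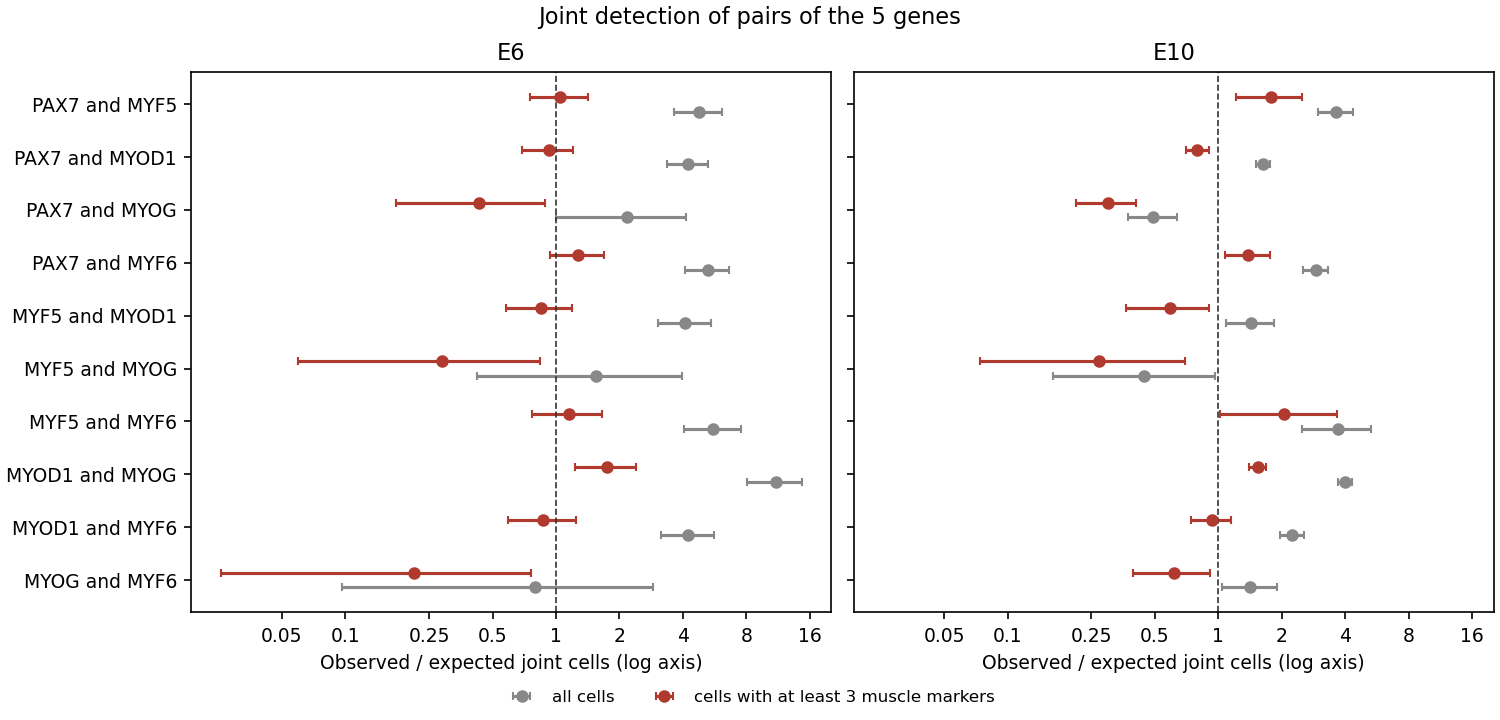
Observed over expected number of cells with both genes of each of the 10 pairs at E6 (left) and E10 (right), on a log axis, in all cells (grey) and in cells with at least 3 muscle markers (red). Bars are exact Poisson 95% intervals of the observed number and the dashed line is the ratio expected for independent detection, with PAX7 and MYOG at 0.431 and 0.298 and MYOD1 and MYOG at 1.75 and 1.53 in the red points.

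Cells with both PAX7 and MYOG were few and mostly held 1 UMI of a gene. At E6 there were 9, of which 7 also held MYOD1, 1 had at least 2 UMIs of both genes and none was among the cells with the highest doublet scores. At E10 there were 59, of which 37 also held MYOD1 and none had at least 2 UMIs of both. Of these 59 cells, 16 were among the 21.9% of cells with the highest doublet scores and 30 were in the tenth of the cells with the most UMIs (median 2024 UMIs). By comparison, 179 of the 691 E10 cells with MYOD1 and MYOG held at least 2 UMIs of both. The part of doublets in the cells with PAX7 and MYOG was not tested. The E10 ratio in cells chosen by muscle markers was between 0.233 and 0.371 under all settings tried. Those settings included other choices of markers and removal of the cells with these scores.

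Muscle differentiation genes were used to group the cells by a measure outside the 5 genes. All E10 cells were used, muscle or not, and before thinning 14301 of them had none of the muscle markers. The group of 22566 cells with none of the differentiation genes therefore mixes muscle with non-muscle cells, and its shares are not a first step within muscle. The list holds 16 matched genes of contraction, of the acetylcholine receptor, of fusion and of cell cycle exit. With every E10 cell thinned to 450 UMIs, MYOG was found in 0.625% of cells with none of these genes, 3.70% with 1, 14.9% with 2, 22.9% with 3 (18.1 to 28.3%) and 19.6% with at least 4 (15.5 to 24.3%). MYOD1 was found in 4.59%, 10.6%, 21%, 26.9% and 26.6% of the same groups, so that neither gene differed between the last steps beyond its interval. For PAX7 the shares were 3.50%, 4.96% (4.26 to 5.73%), 2.22% (1.25 to 3.63%), 0.717% and 1.81%. MYF5 was found in 0.228 to 0.297% of cells with up to 2 of these genes. None of the 279 cells with 3 and the 331 with at least 4 held it. The upper bounds there were 1.31% and 1.11%, above the shares of the other groups, so a fall of MYF5 was not shown. MYF6 was found in 0.771%, 0.855%, 0.444% and 1.08%, and in 5.44% (3.25 to 8.46%) of the cells with at least 4. The last interval of MYF6 lay above those of its other groups.

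**Figure D4:**
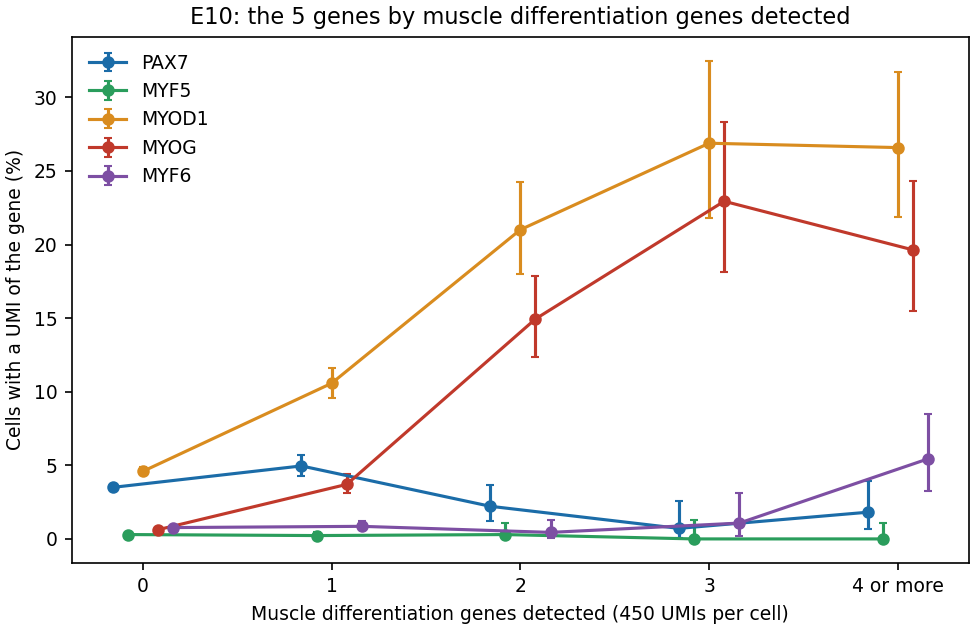
Share of E10 cells with a UMI of each of the 5 genes (percent, exact binomial 95% intervals) by the number of muscle differentiation genes detected in the cell. All cells, muscle or not, were used and thinned to 450 UMIs. MYOD1 and MYOG climb to 26.9% and 22.9% at 3 genes, PAX7 peaks at 4.96% at 1 gene, and MYF6 reaches 5.44% at 4 or more.

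Cells with MYOG and no PAX7 held far more mRNA of differentiation genes than cells with PAX7 and no MYOG. The summed level of the list was 7069 CPM (6627 to 7533) in 45 MYOG cells and 606 CPM (551 to 665) in 192 PAX7 cells at E6, and 7564 (7428 to 7702) against 496 (473 to 520) in 1059 and 2241 cells at E10. Of the members with at least 50 UMIs, 5 of 5 were at least 2 times higher in the MYOG cells at E6 and 12 of 13 at E10, with a median log2 ratio of 2.38 and 2.99. Among all genes 4.11% were that much higher at E6 and 5.2% at E10, and the median was -0.11 at both stages. The cardiac actin gene ACTC1, an early sarcomere gene of embryonic muscle, was at 3605 CPM against 37.0 at E6 (log2 ratio 6.58) and at 4749 against 101 at E10 (5.55). MYMK, the fusion protein myomaker, was at 327 CPM against 5.48 at E6 and 338 against 3.73 at E10. CHRNG, the embryonic subunit of the acetylcholine receptor, was at 96.6 against 4.11 at E6 and 136 against 9.46 at E10. At E6 MYMK and CHRNG each had fewer than 50 UMIs in both groups together, so neither was among the E6 genes counted above. The 9 E6 cells with both PAX7 and MYOG were at 8372 CPM for the list (7378 to 9463), while the 59 of E10 lay between the groups at 2484 (2213 to 2778).

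Inhibitors and partners of the myogenic factors divided between the same cells. ID1 was at 263 CPM in the PAX7 cells and 59.5 in the MYOG cells at E6, and 160 and 59.1 at E10. ID3 was at 496 and 164 at E6, and 269 and 72.6 at E10, while ID2 differed less, at 348 and 216 and then 206 and 165. MEF2C, a partner factor of muscle differentiation, ran the other way, with 9.59 CPM in PAX7 cells and 119 in MYOG cells at E6, and 5.74 and 90.6 at E10. The E6 levels of MEF2C came from fewer than 50 UMIs in both groups together. HES1, a Notch target, was at 14.9 CPM in PAX7 cells and 2.57 in MYOG cells at E10, and MSC (musculin), a repressor of E-box genes, was at 34.7 (28.8 to 41.5) and 1.93 (0.398 to 5.64). The E protein genes TCF3 and TCF12 were near even, at 229 and 233 CPM for TCF3 at E10 and 1332 and 1126 for TCF12. Of this list, 2 of 12 genes with at least 50 UMIs were at least 2 times higher in MYOG cells at E10 and 4 lower. Among all genes 5.2% were that much higher and 8.76% that much lower. At E6 1 of 7 was that much higher and 2 were lower, against 4.11% and 9.49% of all genes.

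Of the upstream and progenitor genes, 1 of the 5 tested at E6 and none of the 7 tested at E10 was at least 2 times lower in the MYOG cells, as were 9.49% and 8.76% of all genes. FGFR4, a receptor of myogenic progenitors, was at 558 CPM in PAX7 cells and 624 in MYOG cells at E6, and 521 and 369 at E10. In the cells with none of the 5 genes it was at 21 CPM at E6. At E10 1 of the 7, EYA2, was at least 2 times higher in the MYOG cells, at 115 CPM against 48.8. Among all genes 5.2% were that much higher. The summed list was at 2445 CPM (2333 to 2561) in PAX7 cells and 1985 (1754 to 2238) in MYOG cells at E6. At E10 the sums were 1599 (1558 to 1642) and 1069 (1018 to 1122). Its median log2 ratio was -0.13 at E6 and -0.50 at E10, against -0.11 for all genes at both stages. At E10 2 of the 7 genes were higher in MYOG cells.

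Cell cycle genes separated the groups at E6 more than at E10. The S phase list was at 2126 CPM in PAX7 cells (2021 to 2234) and 870 in MYOG cells (719 to 1042) at E6, and at 2171 (2123 to 2221) and 1365 (1308 to 1425) at E10. At least 2 times lower in MYOG cells were 7 of 9 S phase genes at E6 and 2 of 12 at E10, against 9.49% and 8.76% of all genes. The G2/M list was at 4003 CPM (3859 to 4151) and 1970 (1740 to 2222) at E6, where 9 of 13 genes were at least 2 times lower. At E10 it was at 4405 (4335 to 4475) and 4385 (4282 to 4490), and 1 of 14 genes was at least 2 times lower, so that the G2/M list did not separate PAX7 from MYOG cells at E10. PCNA, the sliding clamp of replication, was at 584 and 253 CPM at E6 and at 531 and 316 at E10. TOP2A, a topoisomerase of dividing cells, was at 656 and 516 at E10.

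Among the states in which 1 gene was found alone, the differentiation list was highest with MYOG at both stages, at E6 from 5 cells. The order of the other states was not the same at both stages. At E10 the differentiation list was at 413 CPM in PAX7 alone cells, 395 in MYF5 alone (294 to 521), 1789 in MYF6 alone (1641 to 1946), 2332 in MYOD1 alone (2276 to 2390) and 7085 in MYOG alone (6850 to 7325). In cells that held MYF6 and PAX7 and no other of the genes the list was at 359 CPM (284 to 447), against the 1789 of MYF6 alone, and in those with MYOD1 and PAX7 only at 777 (719 to 839), against the 2332 of MYOD1 alone. The 7 matched erythroid markers also differed between these E10 states, with 4657 CPM in cells with MYF6 and PAX7, 294 in MYF6 alone, 461 in cells with MYOD1 and PAX7, 4723 in MYOD1 alone and 110 in cells with MYOD1 and MYOG, and their part in the differences was not tested. At E6 MYF6 alone was at 705 CPM (516 to 941), near the 598 of PAX7 alone (498 to 712). MYF5 alone was at 641 (500 to 810) at that stage. MYOD1 alone was above PAX7 alone, at 946 (823 to 1083), and MYOD1 with MYOG was at 6120 (5680 to 6586). Cells with none of the 5 genes were at 125 CPM at E6 and 518 at E10, and the E10 value was above those of PAX7 alone and MYF5 alone. The G2/M list at E10 was highest among the genes found alone in MYOD1 cells, at 5897 CPM (5807 to 5987), and was 3088 (2934 to 3248) in MYOG alone cells and 2752 (2471 to 3057) in MYF5 alone cells.

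**Figure D5:**
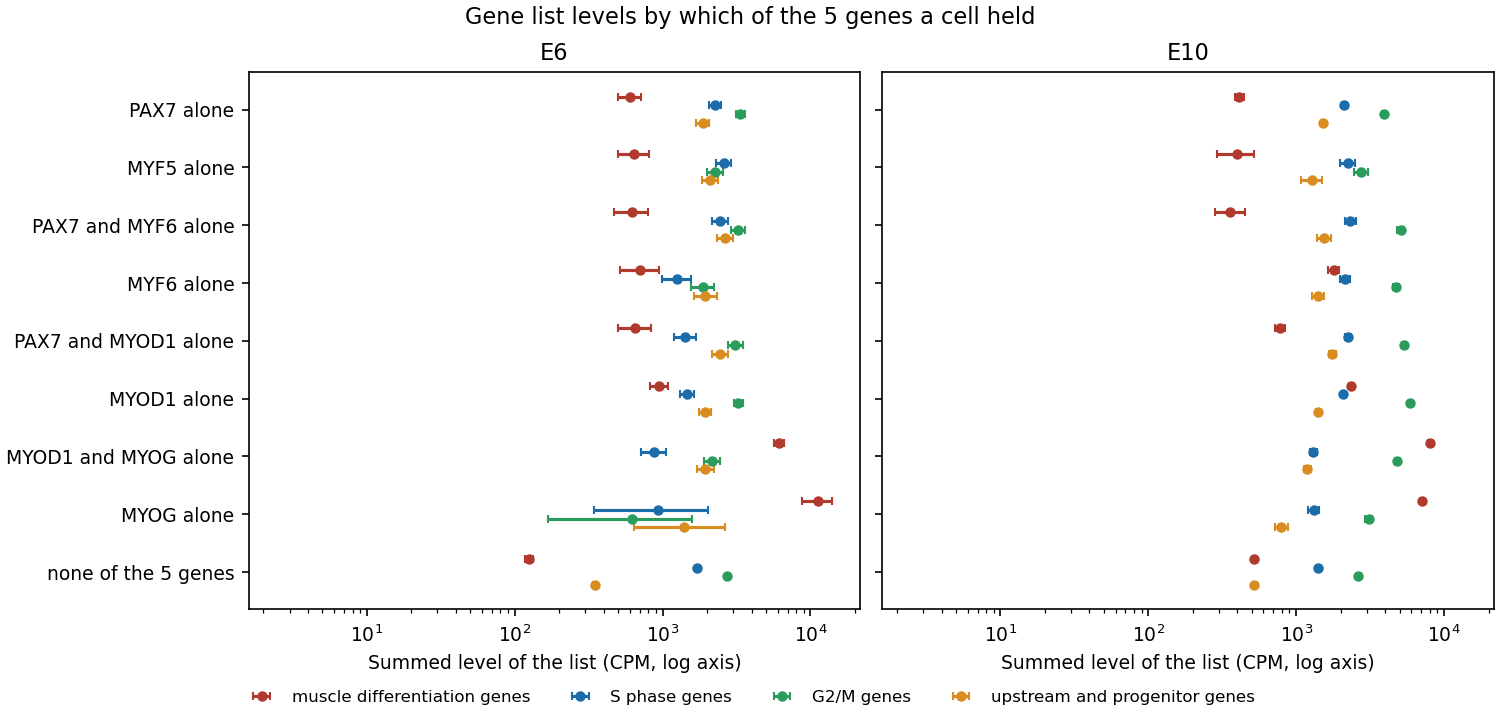
Summed level of 4 gene lists (CPM on a log axis, exact Poisson 95% intervals) in cells grouped by which of the 5 genes they held, at E6 (left) and E10 (right), where alone means that none of the other genes was detected. The differentiation list (red) is at 6120 CPM and above in the plotted states with MYOG and at 2332 CPM or below in the plotted states without MYOG.

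MYF6 cells at E10 held both kinds of company. Of the 606 cells, 218 also held PAX7 or MYF5 without MYOG and had 427 CPM of the differentiation list (365 to 497), and 217 held MYF6 alone with 1789 CPM. Among E10 genes found in at least 50 cells, those with the largest joint detection ratio with MYF6 were TRIM63 (12 cells, 4.76 times), MYBPC1 (16 cells, 4.58 times), MYOT (20 cells, 4.34 times), Six2 (11 cells, 4.21 times) and XIRP1 (15 cells, 4.18 times). TRIM63 is a ubiquitin ligase of muscle fibres, and MYBPC1, MYOT and XIRP1 encode proteins of the sarcomere or of fibre ends. At E6 the corresponding genes, PAX7 and the myogenic factors left out, were PITX1 (5.66 times), LBX2 (5.37 times), RAPSN (4.94 times), C1QTNF3 (4.84 times) and a gene without a symbol.

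Outside the 5 genes, the largest joint detection ratios with PAX7 at E6 were those of PITX1 (36 joint cells, 7.0 times) and FGF9 (51 cells, 5.48 times). CACNG1 (21 cells, 5.44 times), C1QTNF3 (108 cells, 5.16 times) and a gene without a symbol followed. Of the E6 cells with PITX1, a homeodomain factor best known from the hindlimb, 36 of 54 held PAX7. At E10 the 5 were MYT1 (30 cells, 4.97 times), MLANA (21 cells, 4.45 times), RYR3 (141 cells, 4.30 times), HEY1 (45 cells, 4.25 times) and CER1 (25 cells, 3.96 times). MYT1 was found in 1.30% of the E10 cells with PAX7, and PITX1 in 17.9% of those at E6. RYR3 is a calcium release channel, HEY1 a Notch target and CER1 a secreted inhibitor of BMP and Nodal signals. For MYF5 the genes at E6 were ZIC1 (6.45 times), OCM2 (5.88 times), C1QTNF3, FGF9 and PITX1, and at E10 SLC46A3 (4.79 times), MGP (4.76 times), KCNG2 (4.47 times), KCND2 (3.76 times) and a gene without a symbol.

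MYOD1 and MYOG had genes in common among the 5 listed for each at E6. Outside the members, the largest ratio with MYOD1 was that of a gene without a symbol (8.26 times). CACNG1 (7.42 times), CNR1 (7.08 times), PENK (138 cells, 6.67 times) and TNNI2 (6.57 times) followed. The same gene without a symbol also had the largest ratio with MYOG (23.0 times), and TNNI2 (13.6 times) and CNR1 (13 times) were among the 5 of MYOG too. PENK, the precursor of enkephalins, was at 9262 CPM in MYOG cells without PAX7 and at 288 in PAX7 cells without MYOG. At E10 MYMK was found in 323 of the 1118 MYOG cells (11.1 times, 9.93 to 12.4) and in 388 MYOD1 cells (4.37 times). CASS4 (10.6 times) and GnRH-I (9.90 times) were also among the 5 of MYOG, and GJD2 (4.63 times), IL17A (4.49 times) and CHRNA1 (4.32 times) among the 5 of MYOD1. GnRH-I, the releasing hormone gene, was at 59.1 CPM (47.7 to 72.5) in E10 MYOG cells without PAX7 and at 0.287 (0.00726 to 1.60) in PAX7 cells without MYOG. UNC45B, a myosin chaperone, was at 106 and 1.72 CPM, and LMOD1 and MGP were the lowest named genes in the MYOG cells, at 0.643 (0.0163 to 3.58) against 34.4 and at 1.93 (0.398 to 5.64) against 61.9.

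Some PAX7 cells held markers of another lineage. EDNRB2, an endothelin receptor of avian pigment cell precursors, had 119 UMIs in the 192 E6 cells with PAX7 and no MYOG (163 CPM) and none in the 45 cells with MYOG and no PAX7, at least 7.31-fold lower. A UMI of EDNRB2 or of the melanocyte gene MLANA, a pair chosen after their values were seen, was found in 20 cells at E6. Of these, 10 held PAX7 and none held MYF5, MYOD1, MYOG or MYF6. These 10 were 16.1% of the 62 cells with PAX7 alone. At E10 EDNRB2 or MLANA was found in 135 cells, of which 27 held PAX7 and 18 any of the other 4 genes, and 24 of the 1456 cells with PAX7 alone (1.65%) were among them. Without the cells with EDNRB2 or MLANA, none of the 7 pairs recomputed at E6 and E10 in cells with at least 3 muscle markers had a ratio outside its interval. At E6 no joint count could change, since none of the removed cells held any of the other 4 genes. The ratios over all cells and the counts of PAX7 alone were not recomputed without these cells.

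A UMI of a connective tissue marker was found in part of the cells of every gene at E6 and E10. At E6 it was found in 42.3% of PAX7 cells, 48.8% of MYF5 cells, 41.7% of MYOD1 cells, 31.5% of MYOG cells and 39.8% of MYF6 cells, against 5 of 45 reference cells (11.1%, 3.71 to 24.1%). With 450 UMIs per cell, 9 of 47 PAX7 cells (19.1%, 9.15 to 33.3%), 0 of 14 MYOG cells (exact upper bound 23.2%) and 0 of 45 reference cells (exact upper bound 7.87%) had such a UMI. At E10 the shares were 16.9%, 20.8%, 15.9%, 13.2% and 16%, against 9.79% in the reference cells (7.75 to 12.1%). Thinned E10 cells gave 6.30% for PAX7 (4.84 to 8.04%), 10.5% for MYF5 (4.90 to 18.9%), 5.76% for MYOD1 (4.71 to 6.97%), 5.22% for MYOG (3.47 to 7.51%) and 6.03% for MYF6 (3.15 to 10.3%), with 3.89% in the reference cells (2.62 to 5.54%). All 5 thinned shares were above that of the reference cells, and each interval overlapped theirs. Without thinning, the median UMIs were near equal for PAX7 cells (1432.5) and reference cells (1442), and their intervals (15.4 to 18.5% against 7.75 to 12.1%) did not overlap. Those of MYF5, MYOD1 and MYF6 cells did not overlap it either, while that of MYOG cells (11.3 to 15.4%) did. Of the 746 reference cells 450 had over 20% haemoglobin UMIs, so equal UMIs were not equal depth for other genes. Over all cells the share was 77.0% at E6 and 44.1% at E10.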

How the data were processed

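The authors deposited raw UMI counts per gene and barcode of 3 droplet libraries, made with Cell Ranger 3.0.2 and STAR on GRCg6a, per the file headers and the submitters' processing notes, without filters or doublet removal. Libraries held 22765180, 15004113 and 46497874 UMIs at E4, E6 and E10, of which 20792790, 10257724 and 33333046 were in the cells kept. Counts were summed over cells (CPM), and a count of 0 was given a limit of 3 counts. Expected joint cells were computed exactly from detection rates in 20 strata of UMI rank. CPM ratios needed 50 UMIs in both groups together and used a pseudocount of 0.5 UMIs. Named partner genes were the 5 with the largest ratio among genes in at least 50 cells with at least 10 joint cells. Contrast genes were the 5 highest and 5 lowest, and the members were left out of both rankings. The members and lists were chosen with earlier results of these data known. PAX3, CKM, TCF4 and TYMS were among the list genes not matched, and 5 genes were named by identifiers that the study pairs with a symbol. Thinning used a fixed seed. Doublet scores came from Scrublet in scanpy 1.11.5, with 0.8% removed per 1000 cells. Alternatives changed UMI limits, strata, thinning, doublets, mitochondrial percentage and marker numbers. The procedures were tested on simulated data. Python 3.11.15, numpy 2.4.6 and scipy 1.17.1 were used.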

Additional observations from a re-analysis of the deposited data

Results flagged for a closer look

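In barcodes of 1 to 99 UMIs, which lie outside the cells of the comparisons, 5 levels lay above those of the cells beyond both intervals. MYOD1 at E4 was at 7.55 CPM there (3.90 to 13.2, from 12 UMIs) against 0.481 in the cells. MYOG at E6 was at 22.4 CPM (17.6 to 28.2) against 11.3. At E10 MYOD1 was at 283 CPM (271 to 296) against 194, MYOG at 159 (150 to 168) against 52.0 and MYF6 at 35.2 (31.0 to 39.7) against 19.7. PAX7 and MYF5 were not among them at any stage.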

How the results depend on the processing

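No paired analysis was possible because each stage has 1 library. Joint ratios at E6 and E10 were recomputed under settings that included other choices of muscle markers. MYF5 with MYOD1, MYF5 with MYOG and MYOD1 with MYF6 were left out. Of the 168 ratios, 155 stayed within the interval of the value reported for cells with at least 3 muscle markers. An interval under or above 1 came to hold 1 in 17, and one that held 1 no longer did in 6. A value lay on the other side of 1 in 3, which were MYF5 with MYF6 at E10 (0.713 with at least 4 muscle markers, from 1 joint cell) and PAX7 with MYOD1 at E6 (1.01 with at least 2 markers, 1.29 with at least 1 outside the differentiation list). PAX7 with MYOG stayed between 0.233 and 0.371 at E10 and between 0 and 0.647 at E6, with 0 from no joint cell after thinning. MYOD1 with MYOG at E6 was 2.58 in cells with at least 1 muscle marker outside the differentiation list, a choice made after seeing the data. At E10 it was 2.19 under that choice, 1.82 with at least 2 markers and 1.30 with at least 4. PAX7 with MYF6 at E10 was 1.80 after thinning, from 8 joint cells. The share of cells with any of the 5 genes followed the UMIs and the choice of cells. It was 0.267%, 3.71% and 11.2% at 450 UMIs per cell, and 0.535%, 6.87% and 10.8% when at least 2 UMIs were asked for. With 2 times the UMI minimum it was 11.8% at E6 and 26.9% at E10, without the tenth of the cells with the most UMIs 8.02% and 19.0%, and without the highest Scrublet scores 23.6% at E10. The order E4, E6, E10 was the same under each of these. Over all barcodes MYOG was at 14.4 CPM at E6 and 73.1 at E10. Of 45 recomputed levels, 17 moved by more than their interval. Depth limits exclusive detection, since most positive E10 cells held 1 UMI of the gene.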
